A study of Drosophila melanogaster with 9 samples.

Results

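The odorant-binding protein genes are read here in whole adult Drosophila melanogaster of 2 genotypes, a control and a mutant for the nuclear receptor E78A. A gene was taken as a member if its symbol in the deposited annotation sheet started with Obp and a digit, and lush, whose synonym is Obp76a, was added. The annotation holds 52 such genes. Counts were used for 42 of them, out of 14865 genes in the count table, and 34 of the 42 had enough counts to be tested. The other 10 genes had no row in the count table and so were not analysed here. They are Obp47b, Obp50b, Obp50c, Obp50e, Obp56c, Obp57d, Obp58c, Obp58d, Obp73a and Obp85a. The rule for members goes by symbol and uses no measured value, but it was set with earlier results of these data known.

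The series holds 5 control and 4 mutant libraries of poly(A) RNA from whole flies. All flies were aged to day 8 of adult life on food with 8% yeast and 9% sugar. The authors' sample sheet names the genotype of the controls w1118, a white-eyed laboratory stock, and the mutants' genotype E7818.37. The labels give neither the number of flies behind a library nor the lesion of the mutants, and every p-value is set against the variation among these libraries alone, which may be technical. For 4 libraries the genotype tag names the opposite genotype to the title, and the sample sheet disagreed with 0 titles, so the titles were used. Grouped by the tag instead, 0 genes were called by edgeR, and the signs of Obp19d, Obp56a, lush and Obp22a, described below, turned. Library totals ran from 16556267 to 19093675 counts. Eip78C, the gene of E78A, was at 10.6 ± 2.86 CPM (counts scaled to a common library size) over the 5 controls (SD) and 10.7 ± 1.45 over the 4 mutants, so its level over the whole gene does not check the labels. Female markers (yolk protein and eggshell genes, nos and osk) summed to 14.3 to 23.4 CPM per library over 9 genes with counts, of 14 listed. The genes listed as markers of the male reproductive tract, with the cuticle gene Acp65Aa among them, summed to 14641 to 21597 CPM. RNA of the female list was thus scarce beside that of the male list. Control replicate 3 lay farthest from the other libraries on the first principal component over the tested genes, at -32.5 against -16.2 to -7.24 for the other controls and 17.4 to 23.9 for the mutants. The counts of called genes and the fold changes of the genes named by rule were also computed without it.

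Odorant-binding proteins are small secreted proteins that bind hydrophobic molecules. In the antenna, support cells release them into the lymph around the dendrites of olfactory neurons, where some carry or clear odorants and pheromones on their way to and from the receptors. Members of the family are also made in taste organs, in the male reproductive tract and in other tissues, where several have other or unknown ligands. Most have a common pattern of conserved cysteines that form disulphide bridges, and the subgroups called Minus-C and Plus-C have fewer and more of these cysteines.

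The family made up a small part of each library, 0.308% to 0.408% of all counts. The summed level was 3455 ± 317 CPM over the 5 controls (SD) and 3603 ± 482 over the 4 mutants. Between 39 and 42 of the 42 members had at least 1 count in a library. In every library 66.5% to 70.6% of the family's CPM came from 5 genes, Obp56g, Obp99c, Obp56d, Obp51a and Obp19d.

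To compare genes with each other, CPM was divided by the length of each gene's merged exons, which ran from 398 to 1101 bases over the members. On this scale of CPM per kilobase, 1 member had a mean over 1000, 10 lay between 100 and 1000, 13 between 10 and 100, 11 between 1 and 10, and 7 under 1. The highest was Obp56g, a seminal fluid protein of the ejaculatory bulb that takes part in forming the mating plug, at 1409 ± 320 CPM per kilobase in the controls and 1594 ± 181 in the mutants. Obp51a, another seminal fluid protein, followed at 950.3 ± 129 and 934 ± 210.1, and Obp99c, a Minus-C member, at 893 ± 190.1 and 957 ± 159. The libraries of these 3 genes overlapped in level, and all lay above those of Obp56d, which is made in olfactory and taste organs and had 412 ± 65.3 and 414 ± 68.0 CPM per kilobase. Next in the order were Obp99b, Obp19d, Obp44a, Obp57c, Obp56a, Obp57a, Obp56f and Obp99a, with means over all libraries from 287 down to 83.0.

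**Figure D1:**
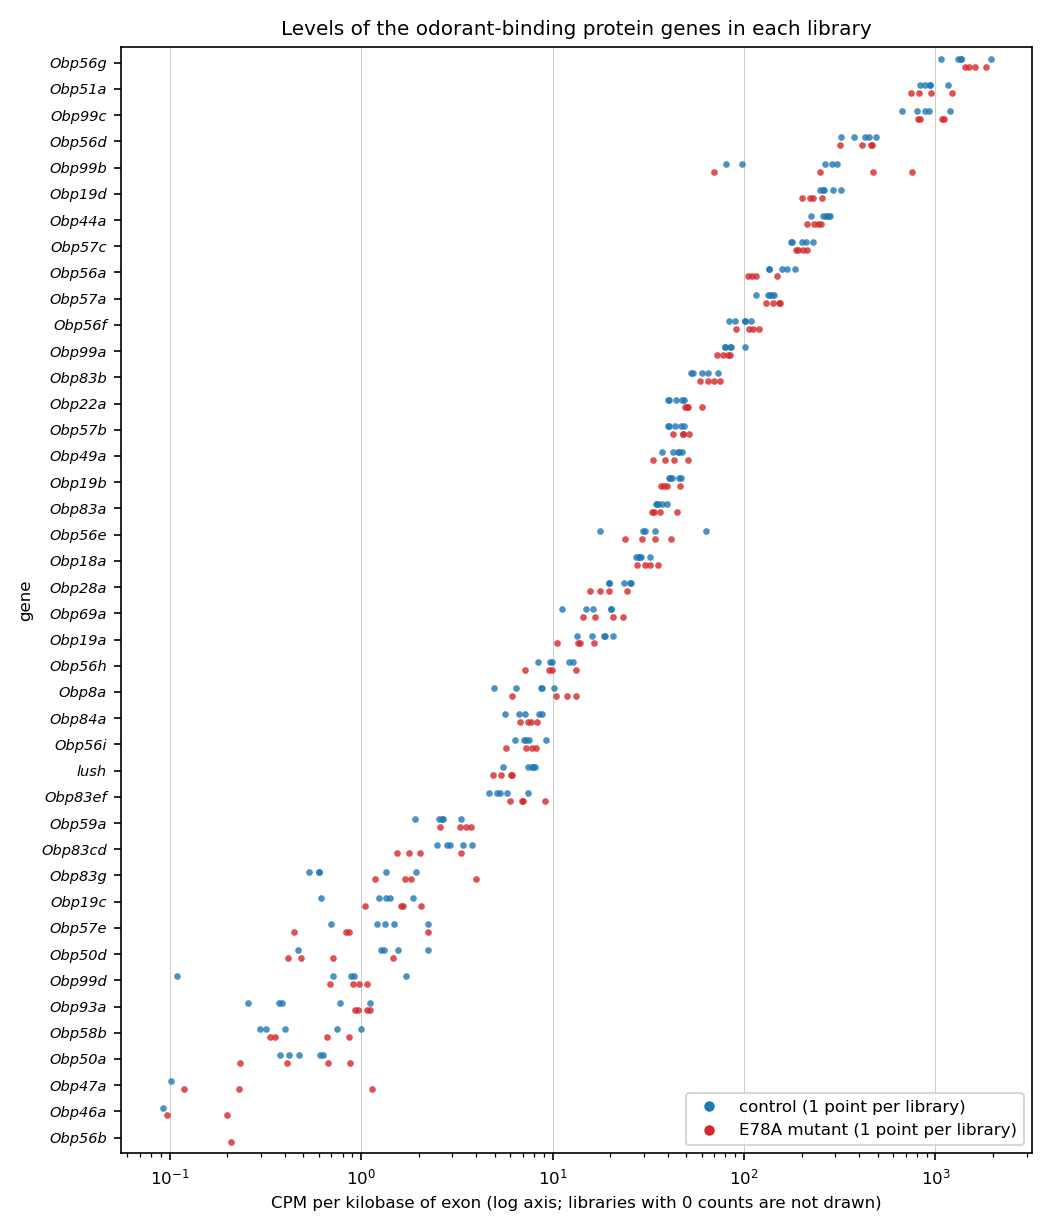
Level of each of the 42 members in CPM per kilobase of exon on a log axis, 1 point per library, controls in blue and E78A mutants in red, genes ordered by their mean over the 9 libraries. The order runs from Obp56g at 1492 to Obp56b at 0.0231, neighbours mostly overlap, and the points of Obp99b spread the most among the abundant members.

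The order was continuous rather than stepped. Of the 41 neighbouring pairs in it, 3 did not overlap over the 9 libraries, Obp99c above Obp56d, Obp18a above Obp28a and Obp83ef above Obp59a. The antennal members were not the most abundant in these whole flies. Obp19d, which is made in antennae and taste organs, was at 276 ± 29.4 CPM per kilobase in the controls, while Obp83b and Obp83a, which are made in sensilla of the antenna, were at 60.9 ± 8.09 and 36.4 ± 2.04, Obp28a at 22.8 ± 3.01, and lush, which is needed for the response to the male pheromone cis-vaccenyl acetate, at 7.32 ± 1.06. Obp59a, which serves the sense of humidity, was lower still at 2.63 ± 0.507.

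Many members sit side by side in the genome. With neighbours at most 50000 bases apart joined, 36 of the 52 annotated genes fell into 9 clusters, and 29 of the 52 lie on chromosome arm 2R. Neighbours within a cluster differed widely in level. In the cluster from Obp56a to Obp56f (BDGP6, 2R:19697723-19713976), Obp56d had a mean of 413 CPM per kilobase over all libraries and Obp56b, which lies between Obp56a and Obp56d, had 0.0231. In the cluster from Obp99a to Obp99b (3R:29671657-29716896), Obp99c was at 921 and Obp99d at 0.887. In the cluster on X (20415744-20420979), Obp19d was at 254 and Obp19c at 1.43.

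The comparison of the genotypes asks which of these genes change when E78A is mutated. No member passed the test. With edgeR's quasi-likelihood test and Benjamini-Hochberg adjustment over 13274 genes, 0 of the 34 tested members were higher and 0 were lower at an adjusted p under 0.05, where 1.63% of all tested genes were called (0.708% higher and 0.927% lower). At an unadjusted p under 0.05 there were 6 members, 17.6% of those tested, against 15.1% of all tested genes. Of these, 2 (Obp22a and Obp83g) were higher, where 7.3% of all genes were, and 4 (Obp56a, Obp19d, lush and Obp19a) were lower, where 7.8% were. DESeq2 called 0 of the 39 members to which it gave an adjusted p, against 3.44% of all genes, and the authors' deposited table also held 0 members with an adjusted p under 0.05, against 3.47% of its genes. Of the tested members, 18 had a positive and 16 a negative log2 fold change, mutant over control (49.5% of all tested genes were positive), with a median of 0.0168 beside -0.0024 for all tested genes.

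The intervals say how large a difference could have gone unseen. The 95% interval of the fold change lay within 2-fold either way for 30 of the 34 members (88.2%, against 88.9% of all tested genes), and within 1.5-fold for 21 (61.8%, against 71.5%). The 4 that reached beyond 2-fold were Obp99b, Obp83cd, Obp83g and Obp50d. The interval ran from -0.32 to 2.11 on the log2 scale for Obp99b and from -1.88 to 0.25 for Obp50d, a Plus-C member that had 104 counts over all libraries. Fewer cells that make an RNA and less RNA per cell cannot be told apart in whole flies.

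**Figure D2:**
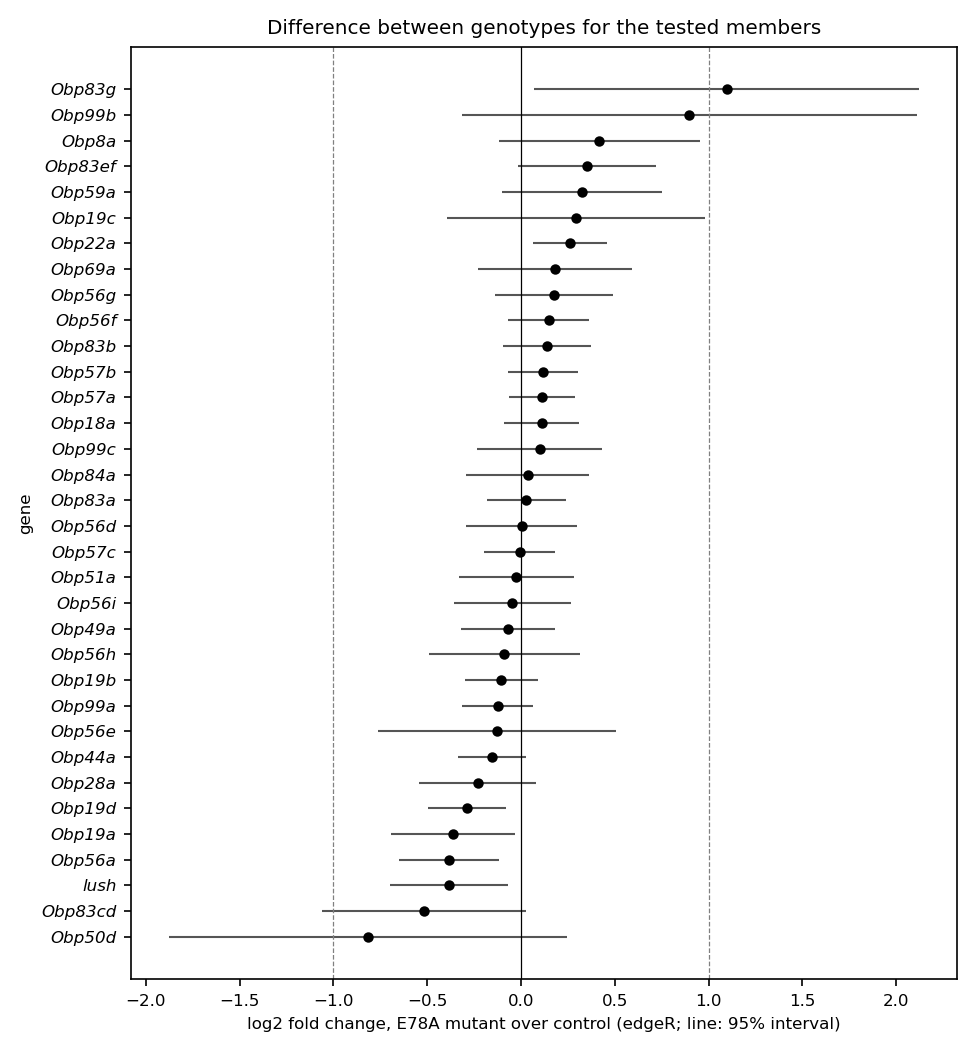
Log2 fold change, E78A mutant over control, of the 34 tested members with its 95% interval (edgeR), sorted by value. The dashed lines mark 2-fold. Obp83g is highest at 1.10 and Obp50d lowest at -0.82, both with wide intervals, and among the abundant members Obp99b stands at 0.90, Obp56a at -0.38 and Obp19d at -0.29.

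Among the 9 antennal members (lush, Obp83a, Obp83b, Obp28a, Obp19a, Obp19d, Obp69a, Obp84a and Obp59a), 0 were called, 5 had a positive log2 fold change and 4 a negative one, with a median of 0.0289. Their summed level was 422 ± 25.4 CPM in the controls (range 393 to 457) and 367 ± 19.0 CPM in the mutants (348 to 388), without overlap. The difference in the mean sum lay in Obp19d. The other 8 genes summed to 117 ± 8.11 CPM (105 to 126) and 117 ± 12.7 CPM (105 to 131). Obp19d alone overlapped between the genotypes, so it does not by itself account for the separation of the sums. The separation holds for the 9 genes listed, and the list was chosen with earlier results of these data known. Obp56d, also made in olfactory organs, is not in the list and had 380 ± 60.2 CPM in the controls and 381 ± 62.7 in the mutants. Among single tested genes, 6.16% did not overlap between the genotypes in either direction. The lowest p among the 9 antennal members belonged to Obp19d (FBgn0011280, X:20419613-20420979, plus strand), also known as Pbprp2. It stood at 352, 285, 288, 273 and 323 CPM in control replicates 1 to 5 and at 280.2, 253, 222 and 243 CPM in mutant replicates 1 to 4. The mutant libraries were low, but mutant replicate 1 lay above control replicate 4, so the groups overlapped. The means were 304 ± 32.4 and 249.5 ± 24.2 CPM (log2 fold change -0.29, SE 0.095, edgeR adjusted p = 0.176).

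The sample sheet numbers the libraries, and those of the same number in the 2 genotypes deviated together across all genes, so the numbers were taken to pair 4 controls with 4 mutants. Control replicate 3 has no partner and was left out of the paired fit. With the pairs as a replicate block, Obp19d passed the test as lower in the mutants (log2 fold change -0.30, SE 0.057, edgeR adjusted p = 0.019). Its log2 ratio was -0.33, -0.17, -0.30 and -0.41 in the 4 pairs. The call ended when pair 3 (control replicate 4 and mutant replicate 3) was left out, with an edgeR adjusted p = 0.0524, and when pair 4 (control replicate 5 and mutant replicate 4) was left out, with an adjusted p = 0.148. In that fit 2 of the 34 members were called, both lower, against 3.79% of all tested genes in either direction, 1.81% higher and 1.98% lower.

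The other member was Obp56a (FBgn0034468, 2R:19697723-19698508, plus strand), the first gene of the Obp56 cluster. Its levels were 101, 73.7, 86.8, 73.9 and 91.7 CPM in control replicates 1 to 5 and 81.5, 63.0, 57.3 and 60.3 CPM in mutant replicates 1 to 4. Apart from mutant replicate 1, each mutant library lay below every control. Without the block the means of 85.5 ± 11.9 and 65.5 ± 10.9 CPM gave a log2 fold change of -0.38 (SE 0.12, edgeR adjusted p = 0.165). With the block it was -0.38 (SE 0.069, edgeR adjusted p = 0.016), with ratios of -0.31, -0.23, -0.37 and -0.61 in the 4 pairs, and without pair 4 the adjusted p was 0.0962. Of 39 tested genes within 200000 bases of Obp56a, 3 were called without the block, the genes CG43111, CR44214 and CR44505. That is 7.69%, against 1.63% of all tested genes. With the block 4 were called, these and CR45231. Variation linked to this stretch in the stocks was not tested. Around Obp19d 0 of 36 genes were called without the block and 0 with it.

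**Figure D3:**
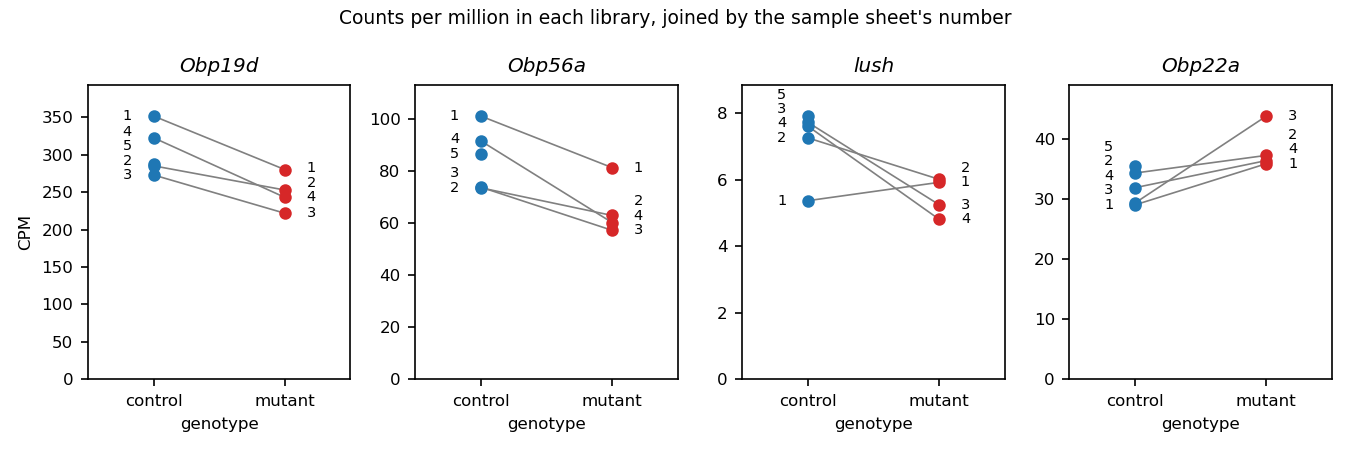
CPM of Obp19d, Obp56a, lush and Obp22a in each library, controls in blue and mutants in red, with the sample sheet's number beside each point and a line joining libraries of the same number. All 4 lines fall for Obp19d and Obp56a and rise for Obp22a, and the line of pair 1 runs against the other 3 for lush. The axis starts at 0.

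The gene lush (FBgn0020277, 3L:19604398-19606090, minus strand) had 5.36, 7.25, 7.91, 7.72 and 7.60 CPM in the controls and 5.92, 6.01, 5.24 and 4.80 CPM in the mutants. Control replicate 1 fell among the mutants, and the other 4 controls lay above all of them. The log2 fold change was -0.38 (SE 0.14, edgeR adjusted p = 0.228, and 0.307 with the replicate block). Of 47 tested genes within 200000 bases of lush, 2 were called without the block, hpRNA:CR33940 and Ir76a. That is 4.26%, against 1.63% of all tested genes, and with the block 5 were called. Eip78C, the gene of E78A, lies on the same chromosome arm. Variation linked to this part of 3L in the stocks was not tested. Obp19a, next to Obp19d on X, had 11.2 ± 1.80 CPM in the controls and 8.74 ± 1.53 in the mutants (-0.36, SE 0.15, edgeR adjusted p = 0.288). Obp83a and Obp83b, the products of neighbouring genes on 3R also known as OS-F and OS-E, had log2 fold changes of 0.029 (95% interval from -0.18 to 0.24) and 0.14 (from -0.096 to 0.37). Obp28a stood at -0.23 (from -0.54 to 0.080), Obp69a at 0.18 (from -0.23 to 0.59), Obp84a at 0.037 (from -0.29 to 0.36) and Obp59a at 0.33 (from -0.098 to 0.75).

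Markers of the olfactory organ summed to 190.5 ± 4.90 CPM in the controls and 186 ± 12.4 in the mutants over 10 genes with counts, 3 of which are the members lush, Obp83a and Obp83b. The ranges were 186 to 199 and 171 to 200.1 CPM. Orco, the co-receptor of most olfactory neurons, was at 14.1 ± 1.90 and 14.3 ± 2.59 CPM, and amos, a gene of developing sensilla, ran from 0 to 0.172 CPM in the controls and from 0.115 to 0.626 CPM in the mutants. Of 9 tested markers 0 were higher and 1 was lower, the gene a5 described below, and with the replicate block 2 were lower, a5 and antdh. The part of these markers in the antennal values was not tested.

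None of the seminal fluid members passed the test. The 7 genes Obp8a, Obp22a, Obp51a, Obp56e, Obp56f, Obp56g and Obp56i summed to 1190.0 ± 121 CPM in the controls and 1287 ± 164 in the mutants, 4 had a positive and 3 a negative log2 fold change, and 0 were called (median 0.15). Obp22a (FBgn0043539, 2L:1991381-1992160, minus strand) was the 1 tested member whose groups did not overlap, 2.94% of the 34, against 6.16% of all tested genes (2.79% with the mutants higher and 3.37% with them lower). It had 29.0, 34.3, 35.5, 29.4 and 31.9 CPM in the controls and 35.9, 37.3, 43.8 and 36.4 CPM in the mutants. Each mutant library was higher than each control, by little in the case of control replicate 3. The log2 fold change was 0.26 (SE 0.091, edgeR adjusted p = 0.199, and 0.0983 with the replicate block). Of 42 tested genes within 200000 bases of Obp22a, 4 were called without the block, namely CG4238, CG4259, CR45290 and dpr3. That is 9.52%, against 1.63% of all tested genes, and with the block 5 were called. Variation linked to this stretch in the stocks was not tested.

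Obp56g, the most abundant member, had 675, 961, 532, 675 and 646 CPM in the controls and 912, 796, 743 and 706 in the mutants. Control replicate 2 was the highest of all 9 libraries. The log2 fold change of 0.18 (SE 0.14, edgeR adjusted p = 0.602) came with an interval from -0.14 to 0.49. Obp51a, at 378 ± 51.5 and 372 ± 83.6 CPM, had -0.025 (from -0.33 to 0.28), and Obp56f, at 51.0 ± 5.39 and 56.5 ± 6.30 CPM, had 0.15 (from -0.069 to 0.36). Obp8a had 0.42 (from -0.12 to 0.95), Obp56i -0.046 (from -0.36 to 0.27) and Obp56e -0.13 (from -0.76 to 0.50). The 34 genes listed as markers of the male reproductive tract, with the cuticle gene Acp65Aa among them, summed to 17694 ± 2497 CPM in the controls and 18104 ± 2829 in the mutants. Their ranges were 14641 to 20553 and 15139 to 21597 CPM, with 0 of 33 tested markers called. Of the 33, 24 had a positive log2 fold change and 9 a negative one, where 49.5% of all tested genes were positive. With the replicate block 1 was higher, Acp54A1, an accessory gland gene (log2 fold change 0.72, edgeR adjusted p = 0.0371). The part of these markers in the seminal fluid values was not tested.

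Of the 4 taste members listed, Obp49a, Obp19b and Obp57e had counts and the first 2 were tested. Obp49a, which lets bitter compounds suppress the response to sugar, was at 34.0 ± 3.05 and 32.4 ± 5.63 CPM (log2 fold change -0.070, 95% interval from -0.32 to 0.18). Obp19b was at 27.9 ± 1.85 and 25.9 ± 2.80 CPM (-0.10, from -0.30 to 0.090). Obp57e had 83 counts over the 9 libraries, 52 in the controls and 31 in the mutants. In the cluster of Obp57a to Obp57c, the log2 fold changes were 0.11 for Obp57a, 0.12 for Obp57b and -0.0063 for Obp57c, with intervals that stayed between -0.20 and 0.31. The unlisted Obp18a on X had 0.11 (from -0.088 to 0.31).

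The Minus-C subgroup held 7 members with counts, of which 6 were tested, 4 with a positive and 2 with a negative log2 fold change, and 0 were called (median 0.26). Obp44a, which binds fatty acids and is made in the nervous system, was among the steadiest members, at 302, 295, 289, 242 and 278 CPM in the controls and 261, 272, 249.4 and 229.7 CPM in the mutants. The log2 fold change was -0.15 (SE 0.083, edgeR adjusted p = 0.426), with the groups overlapping. Obp99a was at 52.5 ± 5.31 and 48.2 ± 3.34 CPM (-0.12, from -0.31 to 0.067) and Obp99c at 597 ± 127 and 640.1 ± 107 CPM (0.10, from -0.23 to 0.43).

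Obp99b (FBgn0039685, 3R:29716254-29716896, minus strand), a Minus-C member that also carries the name tsx and is known as a gene of the head fat body with more RNA in males, differed more between libraries than any other tested member. Its levels were 172, 157, 58.0, 48.0 and 181 CPM in control replicates 1 to 5 and 449.6, 279, 41.6 and 148 CPM in mutant replicates 1 to 4. The highest library held 10.8 times the level of the lowest, and both were mutants. The log2 fold change of 0.90 (SE 0.56, edgeR adjusted p = 0.486) fell to 0.34 without mutant replicate 1 and was 0.45 with the replicate block (adjusted p = 0.367). The libraries of pair 3 were the lowest of their genotypes, at 48.0 and 41.6 CPM, and in pair 1 the mutant held 449.6 CPM against 172 CPM. The genes listed as fat body markers, Npc1b among them, summed to 7000 to 10105 CPM in the controls and 6918 to 8533 in the mutants. Of 10 tested markers 0 were called, and with the replicate block 1 was higher and 3 were lower. The part of these genes in the spread of Obp99b was not tested.

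Obp56h, a member whose loss in males is known to shorten the time to mating, ran the other way in the same libraries. It had 7.83, 7.26 and 7.56 CPM in mutant replicate 3, control replicate 4 and control replicate 3, the 3 libraries with the least Obp99b. In the other 6 it had 4.27 to 5.90 CPM, with the lowest value in mutant replicate 1, where Obp99b was highest. This pairing of genes was noticed after the values were seen, and how many other genes share the pattern of Obp56h was not tested. Between the genotypes the log2 fold change of Obp56h was -0.088 (from -0.49 to 0.32).

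**Figure D4:**
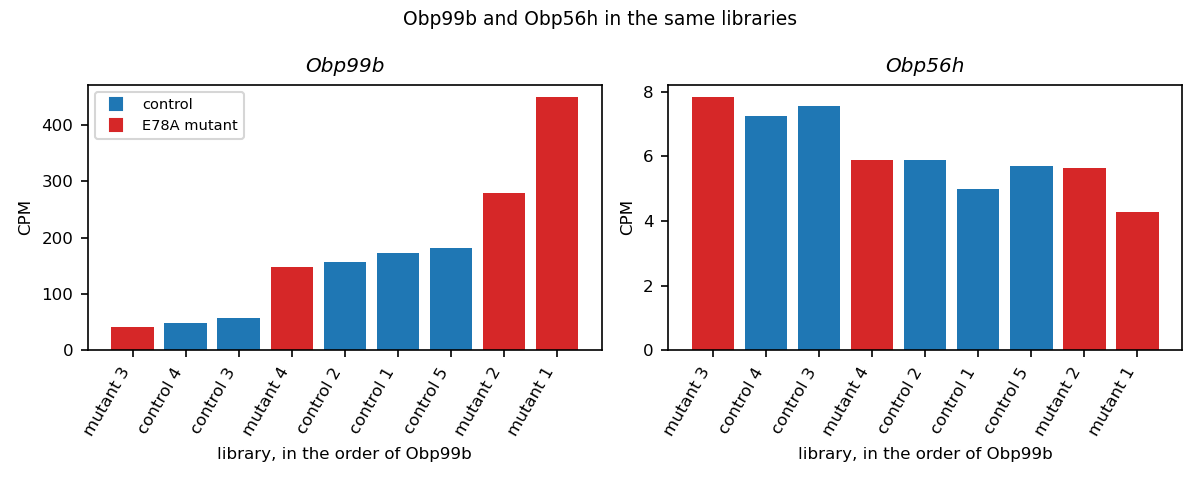
CPM of Obp99b (left) and Obp56h (right) in the 9 libraries, both ordered by the level of Obp99b, controls in blue and mutants in red. Obp99b runs from 41.6 to 449.6 CPM with the genotypes mixed along the order, and Obp56h is highest in the 3 libraries at its low end.

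The spread between libraries of a genotype was measured as a pooled coefficient of variation. Its median was 15.6% over the tested members, against 12.5% over all tested genes. Among members at a mean of 5 CPM or more it ran from 7.87% for Obp57a to 64.0% for Obp99b, which are also the extremes of all tested members. Among the 200 tested genes nearest in level, Obp99b varied more than 100% of them and Obp56e (39.6%) more than 99%. Obp56e owes its rank to the controls, where it was at 9.40, 16.3, 33.8, 15.8 and 18.3 CPM, high in replicate 3 and low in replicate 1. Obp57a and Obp44a (7.88%) varied more than 35.5% and 40.5% of their 200 neighbours.

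**Figure D5:**
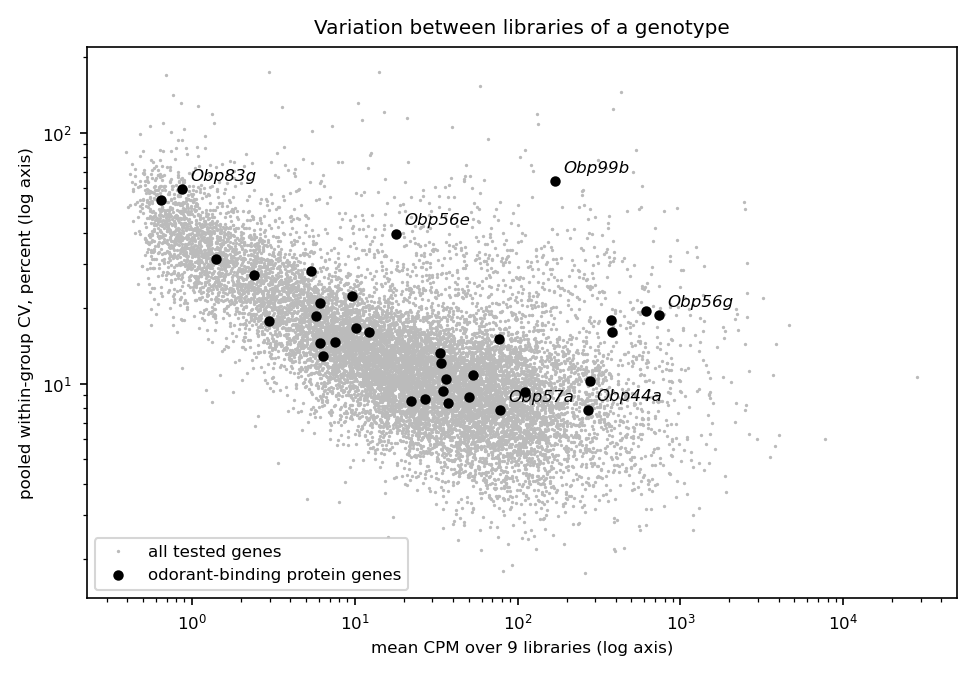
Pooled within-group coefficient of variation in percent against mean CPM over the 9 libraries, both on log axes, for all 13274 tested genes (grey) and the 34 tested members (black). Most members lie within the grey band, while Obp99b at 64.0% and Obp56e at 39.6% lie above it.

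The members of low level stayed below what the test could use or had wide intervals. In the cluster on 3R at 6108134-6112302, Obp83g (569 bases of exon) had 1.11, 0.769, 0.344, 0.305 and 0.343 CPM in the controls and 0.967, 2.26, 1.04 and 0.669 CPM in the mutants, from 136 counts in all. The groups overlapped, and the log2 fold change of 1.10 (SE 0.47, edgeR adjusted p = 0.297) was 0.63 without mutant replicate 2. Its neighbours Obp83ef and Obp83cd, which carry a pair of odorant-binding domains each, had log2 fold changes of 0.35 (SE 0.17, edgeR adjusted p = 0.352) and -0.52 (SE 0.25, adjusted p = 0.362). They overlap each other on opposite strands. Obp19c had 0.29 (from -0.39 to 0.98).

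Of the 8 members without a test, Obp58b, Obp93a, Obp99d, Obp50a and Obp57e had counts in all 9 libraries, between 60 and 83 in total each. Obp47a had 1 count over the controls and 13 over the mutants, 10 of them in 1 library, and Obp46a had 1 and 3. Obp56b had 0 counts over the controls and 2 over the mutants. A count of 0 in a library allows up to 0.152 to 0.182 CPM (3 counts). No untested member exceeded 0.922 CPM in any library. Obp46a, Obp50a, Obp58b and Obp93a are Plus-C members, and of the 13 genes listed in that subgroup 6 had counts and 2, Obp49a and Obp50d, were tested.

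Overlap with another gene on the opposite strand touches 10 members, and with a gene on the same strand 0. The 10 are Obp44a (Pabp2), Obp51a (hbs), Obp56e (CR44509), Obp59a (CG30259), Obp69a (CG32104), Obp84a (CG10050), Obp93a (CG5793), Obp99c (Gycalpha99B), and Obp83cd and Obp83ef with each other. The kit keeps strand. Whether counting used strand is not stated in the labels or file headers, and the reads of a member and its partner may therefore be mixed.

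Other proteins act around the receptors with the odorant-binding proteins, among them the sensory neuron membrane proteins, odorant-degrading enzymes, ejaculatory bulb and antennal secreted proteins and the CheA and CheB proteins of taste bristles. The list used here holds 41 genes and includes receptor genes as well, namely Orco, Or67d, Or65a, Or47b, Or88a, Ir8a, Ir25a and Ir76b. Of the 41 genes, 40 had counts and 35 were tested. Of these 35, 0 were higher and 1 was lower, 10 had a positive log2 fold change and 25 a negative one, with a median of -0.11. Over all tested genes 0.708% were higher, 0.927% were lower and 49.5% had a positive value. The 1 lower gene was a5 (FBgn0011294, 2L:1329161-1329993), an antennal protein of the phosphatidylethanolamine-binding family. It had 9.68, 9.23, 9.46, 9.90 and 9.60 CPM in the controls and 6.83, 5.59, 7.66 and 5.71 CPM in the mutants, so the groups did not overlap. The log2 fold change was -0.57 (SE 0.12, edgeR adjusted p = 0.0341, and 0.0332 with the replicate block).

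The call of a5 ended under 9 of 17 alternatives, among them leaving out any of control replicates 1, 3, 4 and 5 (edgeR adjusted p = 0.077, 0.0575, 0.0881 and 0.0743) or mutant replicates 1, 2 and 4 (0.0541, 0.104 and 0.108). In the fit with the replicate block it ended without pair 2, 3 or 4 (0.101, 0.0569 and 0.171). It lies among other called genes. Of 47 tested genes within 200000 bases of it, 11 were called (23.4%), CR43263, CG5139 and CG43401 among them, and 17 with the replicate block, so variation linked to this stretch of 2L in the stocks and an action of the E78A mutation on a5 cannot be told apart. After a5, the smallest p in the list belonged to CheB38b (log2 fold change 0.50, SE 0.13, edgeR adjusted p = 0.0878), antdh, a dehydrogenase of the antenna (-0.31, SE 0.083, adjusted p = 0.0951), and EbpIII of the ejaculatory bulb (-0.29, SE 0.12, adjusted p = 0.285). With the replicate block 3 of the list were lower, a5, antdh (edgeR adjusted p = 0.0378) and Phk-3 (adjusted p = 0.0488), and 0 higher, against 1.98% of all genes lower and 1.81% higher in that fit. DESeq2 gave CheB38b an adjusted p of 0.0285 and antdh 0.0444.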

How the data were processed

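Per the labels' protocols, stranded libraries were built from poly(A) RNA of whole flies and read in paired ends of 51 cycles. Tools listed, without roles, per the submitters' processing notes are featureCounts 1.6.3, STAR 2.6.1b, DESeq2 1.20.0 and 1.22.2 and cutadapt 1.16, with the builds BDGP6 and dm6. The authors deposited raw counts per gene, used as the input here. The authors' deposited log2 fold changes and p-values come from their own comparison, with DESeq2's column names per the file headers. Deposited normalised tables were not used.

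The genotypes were compared on the counts in R 4.3.3 with the quasi-likelihood test of edgeR 4.0.16 (TMM, filterByExpr with a minimum count of 10, glmQLFit, glmQLFTest, genotype as the term). Benjamini-Hochberg adjustment ran over all tested genes, with a threshold of 0.05. CPM (counts scaled to a common library size) uses TMM-scaled sums over tested genes. Exon lengths came from Ensembl release 115, whose coordinates were the same for all 52 genes as in the deposited release 94 sheet. Floors are 3 counts and cover counting error only; whether PCR copies were removed is not stated.

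Members, lists and the pairing were chosen with earlier results of these data known. Named genes are called members, the 12 highest in CPM per kilobase, the 6 next smallest p, the extremes of variation at 5 CPM or more, and the 4 smallest p of the perireceptor list. Other members are described to account for the whole family. Same-numbered libraries of the sample sheet correlated at 0.207, 0.214, 0.210 and 0.277 in their deviations from group means, at most 0.0402 otherwise. Alternatives were DESeq2 1.42.0, other scalings, filters, thresholds and groupings, each library left out, and the replicate block, in which leaving out each pair was added after the data were seen. The script was tested on simulated data. Of 41 perireceptor symbols 1 did not match. Summed levels and calls of the tissue marker lists are given in the report or the closing observations.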

Additional observations from a re-analysis of the deposited data

Results flagged for a closer look

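In 76 groups of libraries examined, 2 held a library far from the others of its genotype, where chance flags about 1 group in 20. For lush, control replicate 1 was low, at 5.36 CPM against 7.25 to 7.91 CPM in the other controls, a gap of 0.742 of the group's range. Without it the log2 fold change of lush was -0.47 (edgeR adjusted p = 0.118). For Obp99a, control replicate 3 was high, at 61.5 CPM against 48.5 to 52.2 CPM, a gap of 0.716 of the range.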

How the results depend on the processing

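No member was called higher under any alternative. Outside the fits with the replicate block 0 were called lower, with the block 2 (Obp19d and Obp56a), and 0 to 2 when a pair was left out of it, an alternative chosen after seeing the data. The block, which follows the pairing, also made the calls of antdh, Phk-3 and Acp54A1. Among the tissue markers it made those of Sodh-2, Lsp1beta, apolpp, to, Hml, ProtB and Rh5, and it moved the counts of most marker lists. The gut markers went from 1 higher and 2 lower to 3 higher and 5 lower. Over all genes 217 were called, 102 at a threshold of 0.01 and 389 at 0.1, 500 with DESeq2 and 500 with the replicate block, 127 to 291 when 1 library was left out, 21 in the 5 libraries whose title and tag agree, and 0 by edgeR when grouped by the tag (171 at an unadjusted p under 0.05).

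The median of the family stayed within -0.035 to 0.071. Grouped by tag, signs turned for Obp51a (0.0663), Obp56d (-0.0193), Obp19d (0.0216), Obp57c (0.0270), Obp56a (0.0312), Obp57a (-0.0551), Obp56f (-0.0305), Obp22a (-0.0927), lush (0.156) and antdh (0.0591). Obp51a turned with the block (0.0350) and in the 5 libraries that agree (0.0712), as did Obp57c there (0.0377), and Obp56d with upper-quartile scaling (-0.0090). When 1 library was left out, Obp51a ran from -0.180 to 0.0700, Obp56d from -0.0747 to 0.111 and Obp57c from -0.0478 to 0.0494. Leaving a pair out of the block fit turned Obp56g (-0.0021 without pair 1), Obp51a (0.0511, 0.133 and 0.0444 without pairs 2, 3 and 4), Obp56d (-0.0045 without pair 2) and Obp57c (0.0041 and 0.0012 without pairs 1 and 4). The cause was not tested.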

Other observations

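Marker lists of other tissues give the setting of the family in these whole flies, as summed levels over the 5 controls and the 4 mutants (mean ± SD) and calls by edgeR without and with the replicate block. The block called 3.79% of all genes. Testis markers had 2856 ± 380.1 and 2675 ± 49.6 CPM, with 1 of 18 tested higher and 0 lower, and with the block 1 higher (Mst84Db) and 1 lower (ProtB). Of these 18, 2 had a positive and 16 a negative log2 fold change without the block. Gut markers had 10163 ± 984 and 9142 ± 1626 CPM, with 1 of 14 higher and 2 lower, and with the block 3 higher (Amy-d, Amy-p and Vha100-4) and 5 lower (Jon99Ciii, Jon99Cii, Jon25Biii, Bace and Muc68D). The genes listed as fat body markers, Npc1b among them, had 8461 ± 1374 and 7749 ± 752 CPM, with 0 of 10 called. With the block 1 was higher (Sodh-2) and 3 were lower (Lsp1beta, apolpp and to). Head and eye markers had 8671 ± 446 and 8995 ± 385 CPM, with 1 of 16 higher and 0 lower, and with the block 1 higher (Rh6) and 1 lower (Rh5). Hemocyte markers had 735 ± 163 and 732 ± 60.1 CPM, with 0 of 8 called and with the block 1 lower (Hml). Glial markers had 1715 ± 38.9 and 1660 ± 49.0 CPM, with 0 of 8 called in either fit. Female markers had 0 of 7 called in either fit.

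The perireceptor list summed to 3782 ± 389 and 3230 ± 595 CPM. Most of this sum came from EbpIII and Est-6, which are also in the list of male reproductive markers, and the other 38 genes with counts summed to 507 ± 37.5 and 454 ± 30.2 CPM.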
